A study of Arabidopsis thaliana with 12 samples.

Results

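Transcript levels of erf5/6 double mutant seedlings were compared with those of wild-type (WT) seedlings of Arabidopsis thaliana after both had received the elicitor chitooctaose. The comparison used all 3 erf5/6 arrays and all 3 WT arrays of that treatment, 6 of the 12 arrays of the series, and was made over every probe set. The question it addresses is which transcripts of elicited seedlings differ in level when ERF5 and ERF6 are mutated. The erf5/6 chitooctaose group and the WT chitooctaose group were 14 days old and had been exposed to 1 µM chitooctaose for 30 min. The erf5/6 water group and the WT water group were of the same age and had received water for 30 min in place of the elicitor, with 3 arrays each. All 4 groups were whole seedlings from liquid medium under constant light. The labels call the mutant an ERF5 and 6 double mutant and give neither its alleles nor the number of seedlings in a sample. They call the 3 samples of a group biological replicates, without saying whether these were separate cultures, so a p-value measures the spread between these samples.

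Chitooctaose is a soluble fragment of chitin, the polysaccharide of fungal cell walls. Plants perceive such fragments at the cell surface through LysM-domain receptor kinases, and a kinase cascade then switches on defence genes within minutes. ERF5 and ERF6 belong to group IX of the AP2/ERF transcription factors, which bind GCC-box promoter elements of defence genes and are known from the responses to ethylene, jasmonate and chitin. A classical output gene of ethylene and jasmonate signalling is PDF1.2, which encodes a plant defensin, a small secreted antifungal protein.

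Of 22746 probe sets, 18680 had an intensity above 16 on at least 1 of the 12 arrays and were tested. Values below 16 were set to 16, which is called the floor here, and the other 4066 probe sets lay at the floor throughout. A difference was called where its adjusted p from limma (Benjamini-Hochberg over all 18680 probe sets) was under 0.05. The table of gene names used here listed 1 gene for 10554 of the tested probe sets, several for 371 and none for 7755. It listed 0 probe sets for ERF5 or ERF6, so the genotype labels were not checked against the transcripts of the mutated genes. The defining markers of whole seedlings were high in both genotypes. The leaf genes LHCB4.1, of the light-harvesting antenna, and RCA, which encodes Rubisco activase, lay between 5220 and 6456 on the 6 chitooctaose arrays. The root β-glucosidase gene PYK10 lay between 3668 and 4265. The seed genes M17 and PAP85 lay between the floor and 29.

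The erf5/6 arrays correlated with each other at 0.990 to 0.994 over the tested probe sets, and the WT arrays at 0.984 to 0.993. Correlations between the genotypes were 0.985 to 0.991, inside the range seen within WT. The low end of that WT range, 0.984, was the correlation of array 2 with array 1. The highest correlation between the genotypes, 0.991, lay below the highest within erf5/6 (0.994) and within WT (0.993). Principal component 1 of the 6 arrays carried 35.1% of the variance and did not separate the genotypes. It set array 2 of chitooctaose-treated WT (-28.5) apart from the other 5 arrays, which lay between -7.09 and 16.4. Where leaving it out ended a call or moved the difference of a named gene by over 0.25 on the log2 scale, the value without it is given beside the result.

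After chitooctaose, 4 of 18680 probe sets were called between the genotypes, 0.0214% of those tested. Of these, 2 were higher in erf5/6 (0.0107%) and 2 were lower (0.0107%). All 4 were also called in water, in the same direction. Before adjustment, 1207 probe sets (6.46%) had a p under 0.05, 574 higher and 633 lower in erf5/6, and the groups did not overlap for 1960 (10.5%). The difference was at least 2-fold for 29 probe sets. For 18349 probe sets (98.2%) the whole 95% confidence interval of the difference lay within 2-fold in either direction, and the median interval reached 0.275 to each side on the log2 scale. The middle 90% of all differences ran from -0.266 to 0.282 on that scale, around a median of -0.002. A difference of more than 2-fold thus lay outside the interval for these probe sets, and smaller ones could lie within it. This does not hold for probe sets at or near the floor in these groups. Their differences are cut off or compressed, so the interval does not bound them, here and below.

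**Figure D1:**
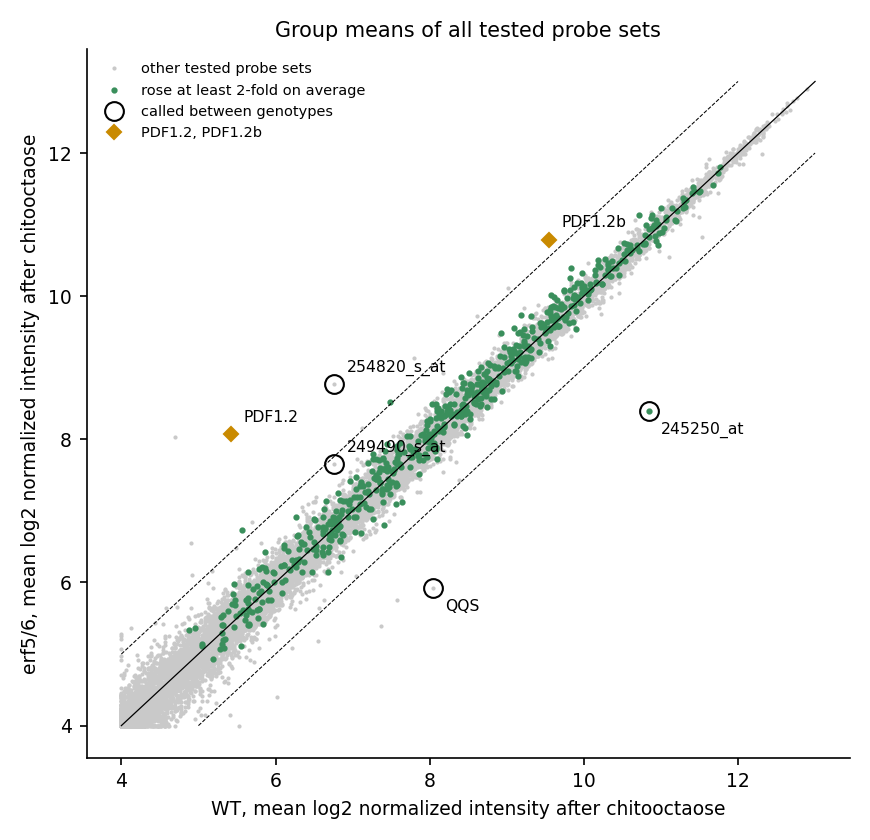
Mean log2 normalized intensity of erf5/6 (vertical axis) against WT (horizontal axis) after chitooctaose, 3 arrays each, for 18680 tested probe sets. The solid line marks equality and the dashed lines a 2-fold difference. The 4 called probe sets are circled, PDF1.2 and PDF1.2b are diamonds and were not called, and the 635 probe sets that rose at least 2-fold on average with chitooctaose (green) lie mostly near the line of equality, with 245250_at below it and 2 without a listed gene just above the upper dashed line.

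The lowest p belonged to probe set 245250_at, for which no gene was listed. Whether it, or any other of the 7755 tested probe sets without a listed gene, measures ERF5 or ERF6 was not tested. Its normalized intensity after chitooctaose was 328, 362 and 325 on the 3 erf5/6 arrays, against 1873, 1904 and 1727 on the 3 WT arrays. The groups lay far apart, with a log2 difference of -2.44 ± 0.107 (SE, n = 3 per group, limma adjusted p = 3.63e-06), a 5.43-fold lower level in erf5/6. In water it read 16, 17.6 and 17.3 in erf5/6, at or near the floor, against 58.8, 73.7 and 78.8 in WT (-2.04, a size limited by the floor). This probe set is one of those that chitooctaose raised, by 4.32 in erf5/6 and by 4.71 in WT on the log2 scale. The rise in erf5/6 is also limited by the floor in water, so the sizes of the 2 rises are not compared. The level of 245250_at was lower in erf5/6 in both treatments, and it rose within 30 min in both genotypes. In whole seedlings, fewer cells with the transcript and less of it per cell cannot be told apart, here and below.

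QQS, a gene particular to Arabidopsis thaliana that influences the partitioning of carbon into starch and protein, was the only called probe set with 1 listed gene. It had 68.9, 66.6 and 48.9 after chitooctaose in erf5/6, against 257, 254 and 281 in WT. The highest erf5/6 array was below the lowest WT array by a wide margin, and the difference was -2.12 ± 0.151 (SE, n = 3 per group, limma adjusted p = 2.89e-04), a 4.34-fold lower level. In water QQS had 106, 124 and 95.4 in erf5/6, against 312, 298 and 390 in WT (-1.62, limma adjusted p = 0.00284).

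The 2 called probe sets that were higher in erf5/6 each matched several genes and are given by their identifiers. Probe set 254820_s_at, with 2 listed genes, had 380, 473 and 464 in erf5/6 after chitooctaose, against 138, 93.6 and 99.4 in WT. The difference was 2.01 ± 0.15 (SE, n = 3 per group, limma adjusted p = 3.16e-04), or 4.02-fold, and in water it was 2.51. Probe set 249490_s_at, with 4 listed genes, had 216, 207 and 183 in erf5/6, against 123, 101 and 104 in WT. Its difference was smaller, 0.888 ± 0.102 (SE, n = 3 per group, limma adjusted p = 0.0168), and in water it was 1.07. These probe sets differ from 245250_at in that chitooctaose moved them little: 254820_s_at changed by -0.472 in erf5/6 and 0.0357 in WT, and 249490_s_at by -0.338 and -0.159.

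The call of 249490_s_at rested on single arrays. Its adjusted p was 0.159 without array 1 and 0.0945 without array 2 of chitooctaose-treated erf5/6, and 0.107 without array 2 and 0.132 without array 3 of chitooctaose-treated WT. It was 0.0553 without array 3 of water-treated erf5/6 and 0.0593 without array 1 of water-treated WT. With each of these left out in turn the difference stayed between 0.835 and 0.888. The other 3 calls were made in every one of the 22 alternatives run, array 2 of chitooctaose-treated WT left out among them.

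**Figure D2:**
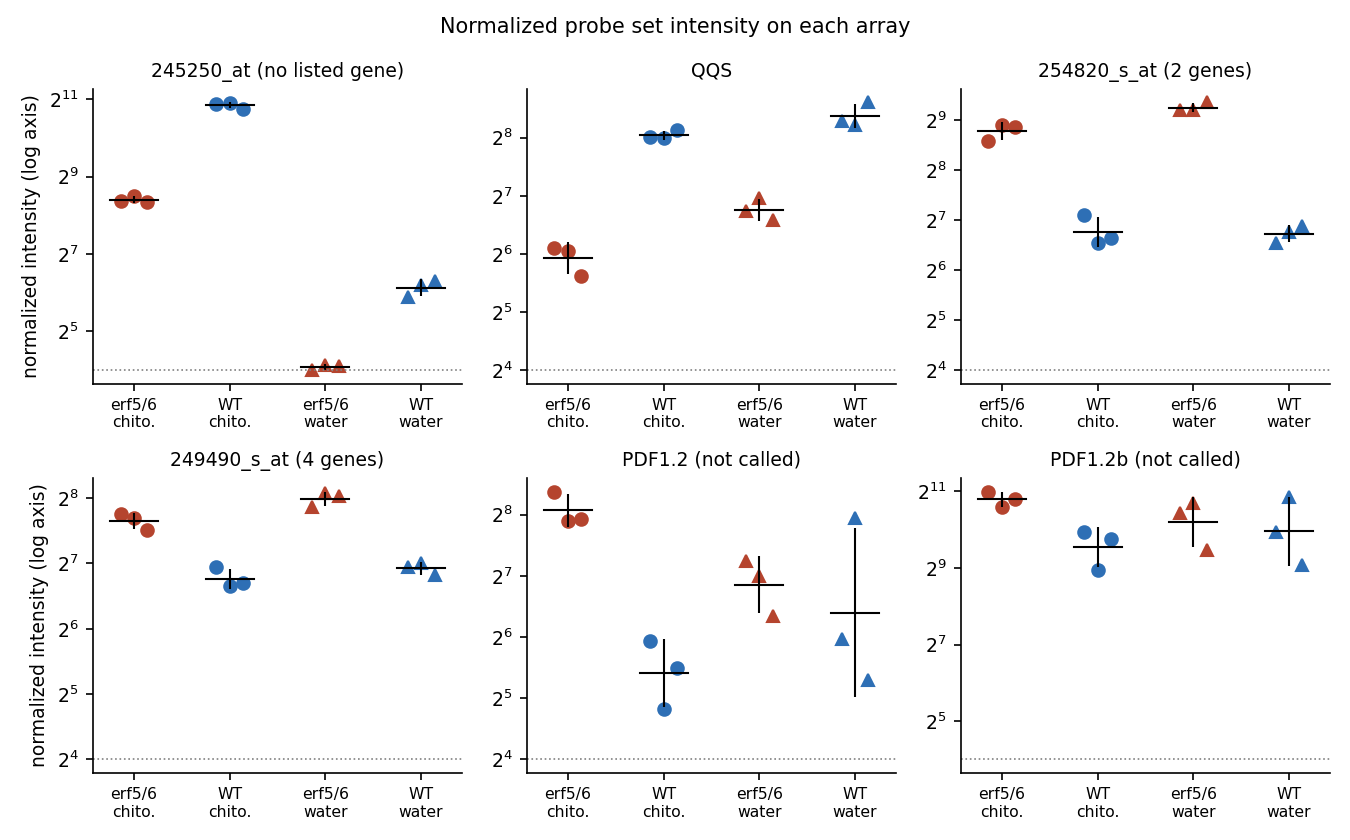
Normalized intensity on each array (log axis, 1 point per array) for the 4 called probe sets and for PDF1.2 and PDF1.2b, with erf5/6 in red and WT in blue, circles for chitooctaose and triangles for water. Horizontal bars are means of the log2 values, vertical bars 1 SD (n = 3), and the dotted line is the floor of 16. In the 4 called probe sets the genotypes are apart in both treatments. In PDF1.2 the WT water arrays run from 39.1 to 246, across the whole erf5/6 water group.

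The largest difference among named genes was that of PDF1.2, and it was not called. PDF1.2 had 332, 239 and 244 in erf5/6 after chitooctaose, against 61.2, 28.4 and 44.8 in WT. The groups did not overlap, and the lowest erf5/6 array was well above the highest WT array. The difference was 2.65 ± 0.56 (SE, n = 3 per group), with a 95% confidence interval of 1.41 to 3.89, an unadjusted p of 6.63e-04 and a limma adjusted p of 0.395. The fit shares 1 estimate of spread over all 4 groups, and the WT water arrays of PDF1.2 were scattered. In water it had 151, 127 and 80.7 in erf5/6, against 62.4, 246 and 39.1 in WT, and the genotypes overlapped (0.458). Without array 2 of chitooctaose-treated WT the difference was 2.36 (adjusted p = 0.272). Without array 2 of water-treated WT the standard error was 0.321 and the adjusted p 0.0466. With only the 6 chitooctaose arrays in the fit the standard error was 0.277 and the adjusted p 0.11. Other omissions raised the adjusted p, to 0.77 without array 1 of chitooctaose-treated erf5/6 and 0.829 without array 3 of chitooctaose-treated WT. PDF1.2 was called in 1 of the 22 alternatives.

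The other defensin genes did not move as 1 block. PDF1.2b had 2034, 1532 and 1785 in erf5/6 after chitooctaose, against 982, 496 and 860 in WT, a difference of 1.24 ± 0.44 (SE, n = 3 per group, unadjusted p = 0.0168, limma adjusted p = 0.662). The groups did not overlap, and without array 2 of chitooctaose-treated WT the difference was 0.947. Its probe set is of a kind that can also bind near-identical copies, so PDF1.2 and PDF1.2b are not independent measurements. PDF1.4 lay the other way, at 85.6, 99.5 and 74.9 in erf5/6, against 119, 108 and 125 in WT (-0.443, unadjusted p = 0.00874, limma adjusted p = 0.603). These 3 were the tested members of a list of 11 jasmonate and ethylene defence outputs. Of them 0 were called, where 0.0214% of all tested probe sets were. With 3 members, 0 calls is near that share and is no result about the list.

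Since only QQS was called among probe sets with 1 gene, the genes with the lowest unadjusted p in each direction are described next, as differences that did not pass the adjustment. In erf5/6 the lowest p among higher genes belonged to AT2G41330, which encodes a glutaredoxin family protein. It had 53.0, 44.8 and 52.0 after chitooctaose in erf5/6, against 36.0, 34.9 and 35.0 in WT (0.498 ± 0.0763, SE, n = 3 per group, limma adjusted p = 0.113). The groups did not overlap in water either, where the difference was 0.226. The adjusted p of AT2G41330 was 0.0358 without array 2 of chitooctaose-treated erf5/6. It was 0.415 without array 1 and 0.391 without array 3 of that group, and 0.493 without array 3 of chitooctaose-treated WT. AT2G41330 was called in 2 of the 21 alternatives that tested it.

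PUB24, a U-box ubiquitin ligase that restrains immune signalling, came next. It had 361, 377 and 346 in erf5/6 after chitooctaose, against 263, 279 and 245 in WT (0.462 ± 0.0838, SE, n = 3 per group, limma adjusted p = 0.25). All erf5/6 arrays were above all WT arrays. In water the genotypes overlapped, with 38.0, 32.8 and 33.4 in erf5/6, against 30.2, 32.7 and 33.6 in WT. AT1G69890, which encodes a protein of unknown function, showed a like pattern among the genes raised by chitooctaose, with 1064, 964 and 1033 in erf5/6 against 815, 831 and 703 in WT after the elicitor (0.384, limma adjusted p = 0.395). In water it differed by -0.0378.

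The remaining higher genes were dimmer or differed in water as well. AT5G23830, which encodes a protein with a lipid-recognition domain, had 350, 317 and 352 in erf5/6, against 264, 247 and 234 in WT (0.454, and 0.532 in water). AT5G66985, a gene of unknown function, had 103, 143 and 141 in erf5/6, against 74.3, 89.4 and 83.8 in WT (0.634, and 0.649 in water). Both thus differed by about as much without the elicitor. GSTF4, a glutathione transferase gene, had 54.0, 50.5 and 47.1 in erf5/6, against 42.4, 33.4 and 31.0 in WT (0.517). AT5G40020, of the thaumatin family of pathogenesis-related proteins, had 39.8, 47.4 and 42.0 in erf5/6, against 19.6, 24.4 and 26.3 in WT (0.886). AT1G35320 (0.76) and AT3G05620 (0.406), the second a pectin methylesterase gene, were within a few units of the floor in WT. Limma adjusted p-values of these 6 genes lay at 0.328 or 0.395.

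Among genes lower in erf5/6 after QQS, several were dim. AT4G35710 was at the floor on all 3 erf5/6 arrays, against 20.0, 22.3 and 21.3 in WT, which makes it at least 1.32-fold lower (limma adjusted p = 0.113). AT2G05580, likewise at the floor in erf5/6, had 20.9, 23.8 and 29.8 in WT and was at least 1.54-fold lower (limma adjusted p = 0.395). AT4G26880, of a family of small cysteine-rich secreted proteins, had 17.2, 16 and 18.0 in erf5/6, against 28.2, 27.7 and 38.8 in WT (-0.871, limma adjusted p = 0.198). In water the genotypes overlapped for this gene, at 31.6, 27.3 and 38.0 in erf5/6, against 27.4, 24.3 and 28.9 in WT. AT5G13880, a gene of unknown function, had a like pattern, with 23.5, 17.6 and 20.7 in erf5/6, against 41.0, 30.4 and 33.3 in WT after chitooctaose (-0.758, limma adjusted p = 0.198) and a difference of 0.0354 in water.

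The other lower genes included brighter ones. AT2G16630, which encodes an extensin-like cell wall protein, had 195, 199.9 and 200.1 in erf5/6, against 253, 237 and 257 in WT (-0.326 ± 0.0623, SE, n = 3 per group, limma adjusted p = 0.317). AT2G44970, of the alpha/beta-hydrolase superfamily, had 201, 161 and 200.3 in erf5/6, against 257, 310.4 and 299 in WT (-0.625, limma adjusted p = 0.371, and -0.473 in water). The groups did not overlap for either gene. AT2G32160 (-0.833), a methyltransferase family gene, AT2G47950 (-0.523) and AT1G26330 (-0.485) completed the 10, with limma adjusted p-values between 0.328 and 0.395.

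The water arrays entered the p-values that rank these genes only through the shared spread, and the genotype difference in water shows whether the same difference was present without the elicitor. Of the 10 higher genes, 8 were also higher in erf5/6 in water, 4 of them with an unadjusted p under 0.05, where 6.05% of all tested probe sets passed that limit in water. Of the 9 lower genes other than QQS, 5 were lower in water too, 2 of them with an unadjusted p under 0.05. Over all tested probe sets 52.9% had the same sign in both treatments, and 3.91% had it with an unadjusted p under 0.05 in water. Of the 46 probe sets with an unadjusted p under 0.001 after chitooctaose, 33 had the same sign in water and 13 of these an unadjusted p under 0.05 there. Genes picked for a low p tend to have a small shared spread, which lowers their p in water too. The shares over all probe sets are therefore no baseline for these counts under 0.05, and nothing is concluded from that comparison.

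Other named genes differed by at least 2-fold and were not called, and they were picked out after their values were seen. AT3G05950, a germin-like gene of the cupin family, had 16.2, 33.7 and 17.3 in erf5/6, against 34.5, 111 and 71.0 in WT (-1.61 ± 0.453, SE, n = 3 per group, limma adjusted p = 0.562). Its highest erf5/6 array lay just under its lowest WT array, and without array 2 of chitooctaose-treated WT the difference was -1.22. AT3G23550, a MATE transporter gene, had 315, 262 and 285 in erf5/6, against 161, 140.2 and 119 in WT (1.04, limma adjusted p = 0.412). AT5G38020, a methyltransferase gene of the SABATH family, had 51.5, 42.2 and 57.9 in erf5/6, against 27.6, 16 and 30.8 in WT (1.07, limma adjusted p = 0.647, and 0.781 without that array). AT1G06930 had 91.5, 93.5 and 96.3 in erf5/6, against 16, 107 and 16 in WT, so array 2 of WT lay above erf5/6 while the other 2 WT arrays were at the floor (1.64, limma adjusted p = 0.801). Without that array WT was at the floor throughout, and the difference was a lower bound of 2.55 (adjusted p = 0.324). The largest difference of any probe set was 3.33 ± 0.833 (SE, n = 3 per group, limma adjusted p = 0.463), and this probe set has no listed gene.

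Genes of defined pathways were then read from 32 lists with 401 different loci, of which 96 had a probe set with 1 gene and 88 were tested. After chitooctaose 0 of the 88 were called between the genotypes, where 0.0214% of all probe sets were. At an unadjusted p under 0.05, 5 were higher and 5 lower in erf5/6, against 3.07% and 3.39% of all tested probe sets. The median difference of the 88 was 0.0037, against -0.002 over all tested. For 79 of them the 95% confidence interval lay within 2-fold.

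Among the listed transcription factor genes that were tested, 0 were called, where 0.0214% of all tested probe sets were. Most listed loci of these families were not tested. The WRKY factors, which bind W-box elements of defence genes, were measured by 3 of 21 listed loci. These were WRKY53 (0.254), WRKY22 (0.33) and WRKY6 (-0.0808), with a median of 0.254. WRKY53 had 1350, 1485 and 1315 in erf5/6 after chitooctaose, against 1266, 966 and 1272 in WT, groups that were separate by a small gap (95% confidence interval -0.056 to 0.563). Of 17 loci of ERF group IX, the group of ERF5 and ERF6 themselves, 3 were tested, and their differences lay between -0.185 and 0.021. Outside that group 5 of 33 listed AP2/ERF loci were tested, and they lay between -0.238 and 0.161. In the stress zinc finger list 3 of 11 loci were tested. STZ, a repressor induced by many stresses, had 2448, 2772 and 2574 in erf5/6, against 2745, 2493 and 2458 in WT (0.0179). AT2G28200 had 74.1, 71.1 and 80.0 in erf5/6, against 87.3, 94.5 and 86.2 in WT (-0.252, unadjusted p = 0.0228).

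Among calcium signalling genes, the calcium sensor CML42 had the lowest p. It had 1271, 1254 and 1168 in erf5/6 after chitooctaose, against 848, 1020 and 852 in WT (0.445 ± 0.108, SE, n = 3 per group, limma adjusted p = 0.436), with no overlap. The other 8 tested calcium signalling genes lay between -0.417 and 0.147, so 3 of 9 were higher, and the median was -0.108. PUB22 (0.177) and PUB23 (-0.0785), the ligases related to PUB24, overlapped between the genotypes. BIK1, a receptor-associated kinase gene of immune signalling, had 0.223, and the immune receptor gene EFR 0.247. In the salicylic acid list GRX480, a glutaredoxin gene, had -0.538 (95% confidence interval reaching beyond 2-fold, and -0.281 without array 2 of chitooctaose-treated WT) and SAG101, a partner of the immune regulator EDS1, had -0.0378. The jasmonate genes OPCL1 (0.143), of synthesis, and MYC3 (0.0013) and MYC4 (0.217), of the response, were not called. Neither was the ethylene signalling gene EIN3 (0.0315).

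Genes that act outside the cell were spread around 0. Chitinases cut chitin, and 9 of their 14 listed loci were tested, 4 higher and 5 lower in erf5/6, with a median of -0.0341. CHI had the lowest value, with 84.2, 44.2 and 55.7 in erf5/6, against 94.4, 83.9 and 91.9 in WT (-0.604, unadjusted p = 0.0758), and AT1G02360 the highest, 0.333. The 9 class III peroxidase genes, of cell wall and oxidative burst chemistry, had a median of -0.00632. Secreted peptide precursor genes, which chitooctaose raised strongly in both genotypes, were close between them. AT4G28460 differed by 0.019, AT4G37290 by 0.137, and AT2G23270 had 274, 339 and 253 in erf5/6, against 411, 320 and 333 in WT (-0.30, unadjusted p = 0.0268). The xyloglucan transferase genes XTH18 (0.00161) and XTH19 (0.0202) overlapped between the genotypes.

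Among the lists with at least 4 tested members, only the anthocyanin list had all of them on the same side of 0. Some smaller lists did so too, such as jasmonate synthesis and signalling, with 3 of 3 higher in erf5/6. Whether the members of a list vary independently was not tested. The 4 anthocyanin genes had negative differences, with a median of -0.675. Of these, 2 had an unadjusted p under 0.05, where 3.39% of all tested probe sets were lower at that limit. UF3GT, an anthocyanin glycosyltransferase gene, had 21.2, 23.0 and 17.3 in erf5/6 after chitooctaose, against 28.6, 33.2 and 37.4 in WT without overlap (-0.691 ± 0.236, SE, n = 3 per group, limma adjusted p = 0.638). AT4G14090, an anthocyanin glucosyltransferase gene, had 24.6, 45.0 and 27.4 in erf5/6, against 42.1, 54.7 and 52.0 in WT, with overlap (-0.659, limma adjusted p = 0.70). Without array 2 of chitooctaose-treated WT the unadjusted limma p of AT4G14090 was 0.0772, no longer under 0.05, and that of UF3GT was 0.0376. DFR, the dihydroflavonol reductase gene, had 27.7, 31.7 and 16 in erf5/6, against 23.8, 62.1 and 50.1 in WT, with overlap (-0.799, unadjusted p = 0.122, and -0.516 without array 2 of chitooctaose-treated WT). AT5MAT, an anthocyanin malonyltransferase gene, was at the floor in erf5/6 and at 16, 23.7 and 17 in WT, so at least 1.16-fold lower (unadjusted p = 0.221). Signals of the whole list were low, and in water its median was -0.30. The list had 12 loci, and the other 8 were not tested.

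The remaining lists gave 0 calls as well, where 0.0214% of all tested probe sets were called. Of 4 tested abscisic acid, cold and drought genes LTI30, a dehydrin gene, had 623, 518 and 491 in erf5/6, against 388, 494 and 388 in WT (0.363, unadjusted p = 0.0309), and COR47, COR15A and COR15B lay between -0.144 and -0.0123. The auxin response genes lay between -0.201 and 0.189 and the heat shock genes between 0.0169 and 0.0572. The glucosinolate genes GTR1 (0.08), BCAT4 (-0.0295) and UGT74B1 (-0.0112), the glutathione transferase gene GSTU25 (0.0191) and the clock gene GI (-0.124) overlapped between the genotypes. Tissue markers were not called either. LHCB4.1 differed by 0.0443 and RCA by 0.0255, both leaf genes. Of the root genes, PYK10 differed by 0.118 with no overlap, EXPA7 by -0.0176 and EXPA18 by -0.22. The seed genes M17 and PAP85, near the floor, differed by 0.104 and 0.275, and the reference genes lay between -0.121 and 0.111. The lists of phosphate, iron, sulphur, nitrate and sugar starvation genes had 0 tested members.

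**Figure D3:**
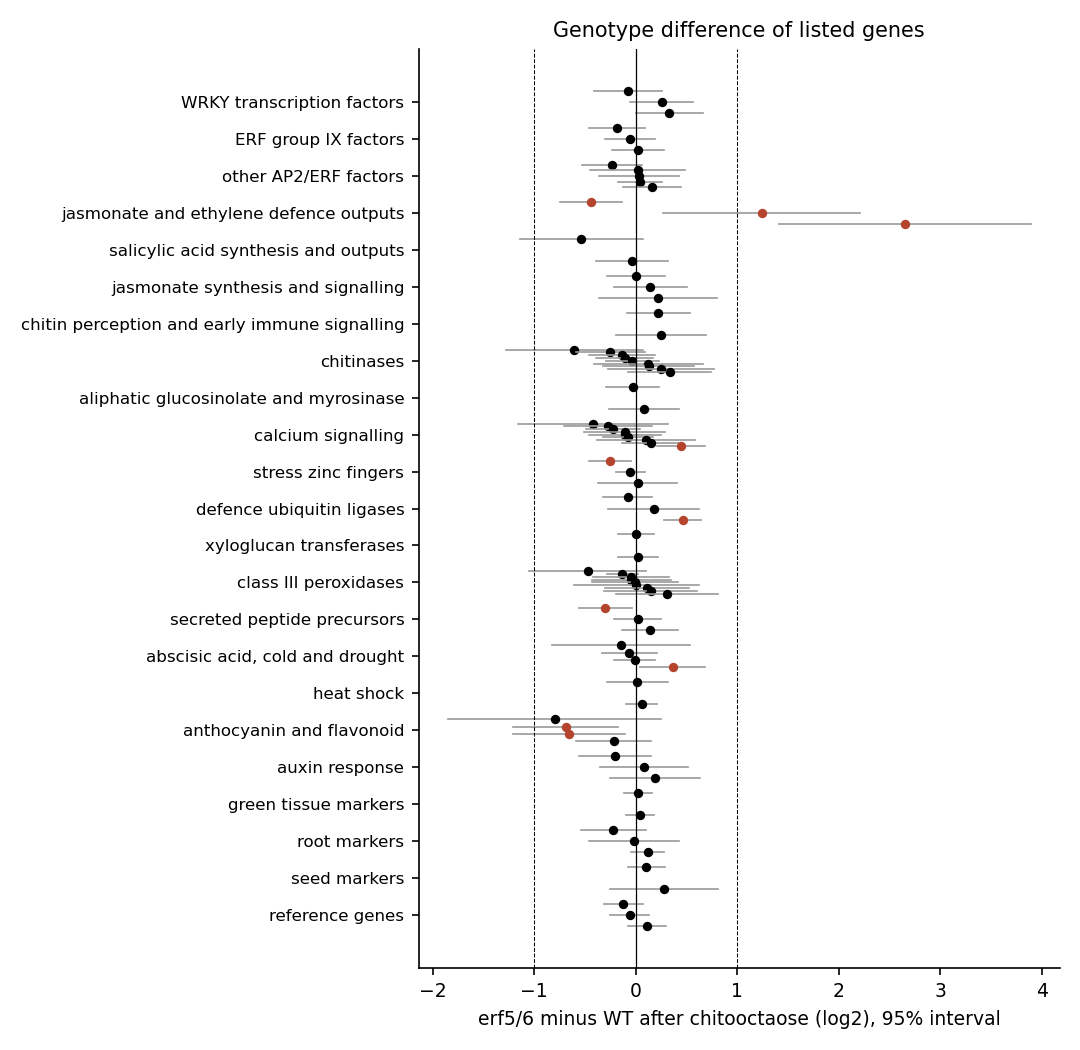
Difference between erf5/6 and WT after chitooctaose (log2, point) with its 95% confidence interval (line) for each tested member of the lists with at least 2 tested genes. Red points have an unadjusted p under 0.05, and dashed lines mark a 2-fold difference. Most members lie near 0, PDF1.2 and PDF1.2b lie to the right by 2.65 and 1.24, and the 4 anthocyanin genes lie to the left.

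Whether genes that the elicitor raises reached the same level in both genotypes was read from the 635 probe sets that rose at least 2-fold on average, with the 2 genotypes weighted alike. Among these 635, 1 was called, 245250_at, where 4 of all 18680 tested probe sets (0.0214%) were. Probe set 245250_at was 1 of 3 that differed by at least 2-fold. The other 2, without a listed gene, were higher in erf5/6 by 1.17 (limma adjusted p = 0.198) and 1.02 (limma adjusted p = 0.76). The median difference between erf5/6 and WT after chitooctaose was 0.0594, against -0.002 over all tested probe sets, and 65% lay above 0, against 47.5% of all tested. For 621 of the 635 (97.8%) the 95% confidence interval lay within 2-fold. Leaving out single arrays moved the gap to the median of all tested between 0.0324, without array 3 of chitooctaose-treated WT, and 0.0799, without array 3 of chitooctaose-treated erf5/6, and the share above 0 between 57.8% and 66.8%. With the deposited values taken without quantile normalization that share was 78.4%, with a median of 0.134, against 0.0507 over all tested. The probe sets are not independent of each other, so the count above 0 carries no test.

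The 3 strongest responders with 1 listed gene had small differences between the genotypes. AT3G02840, an ARM-repeat gene, had 1026, 1217 and 944 in erf5/6 after chitooctaose, against 1199.8, 971 and 883 in WT. AT1G07160, a PP2C-type phosphatase gene, had 1090, 1101 and 921 in erf5/6, against 955, 967 and 879 in WT, a difference of 0.148 with a 95% confidence interval of -0.0288 to 0.325. AT2G22880, a VQ-motif gene, differed by 0.116, with a wider 95% confidence interval of -0.544 to 0.777. The genotypes overlapped for all 3. Some other strong responders were further apart. The TIR-domain gene AT1G66090 had 796, 694 and 786 in erf5/6, against 514, 572 and 555 in WT (0.471, unadjusted p = 0.0316, limma adjusted p = 0.742). The metalloproteinase gene AT1G24140 lay the other way, with 456, 512 and 458 in erf5/6, against 584, 564 and 546 in WT (-0.251, unadjusted p = 0.0102, limma adjusted p = 0.614). Neither gene overlapped between the genotypes.

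The genotype difference after chitooctaose was finally tested against that in water. In water limma called 6 of 18680 probe sets (0.0321%), the 4 called after chitooctaose and 2 more, both higher in erf5/6. AT5G55570 had 36.0, 32.9 and 44.8 in erf5/6 after chitooctaose, against 30.8, 23.9 and 27.4 in WT (0.466, limma adjusted p = 0.608), and differed by 1.25 in water. Probe set 247949_at, with no listed gene, differed by 0.423 after chitooctaose and 0.928 in water. The test of the difference between the treatments called 0 probe sets, with a lowest limma adjusted p of 0.975, and 859 (4.6%) had an unadjusted p under 0.05. For QQS the change in the difference was -0.503, further below WT after chitooctaose than in water, with an unadjusted p of 0.0389. For 245250_at it was -0.397, a size and sign that rest on erf5/6 water values at or near the floor, so no direction is read from it. For 254820_s_at (-0.508) and 249490_s_at (-0.179) the gap above WT was smaller after chitooctaose, with unadjusted p-values of 0.0365 and 0.243. For PDF1.2 the change in the difference was 2.19 ± 0.793 (SE, n = 3 per group, unadjusted p = 0.0187, limma adjusted p = 0.975). The median interval of this test reached 0.389 to each side on the log2 scale.

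**Figure D4:**
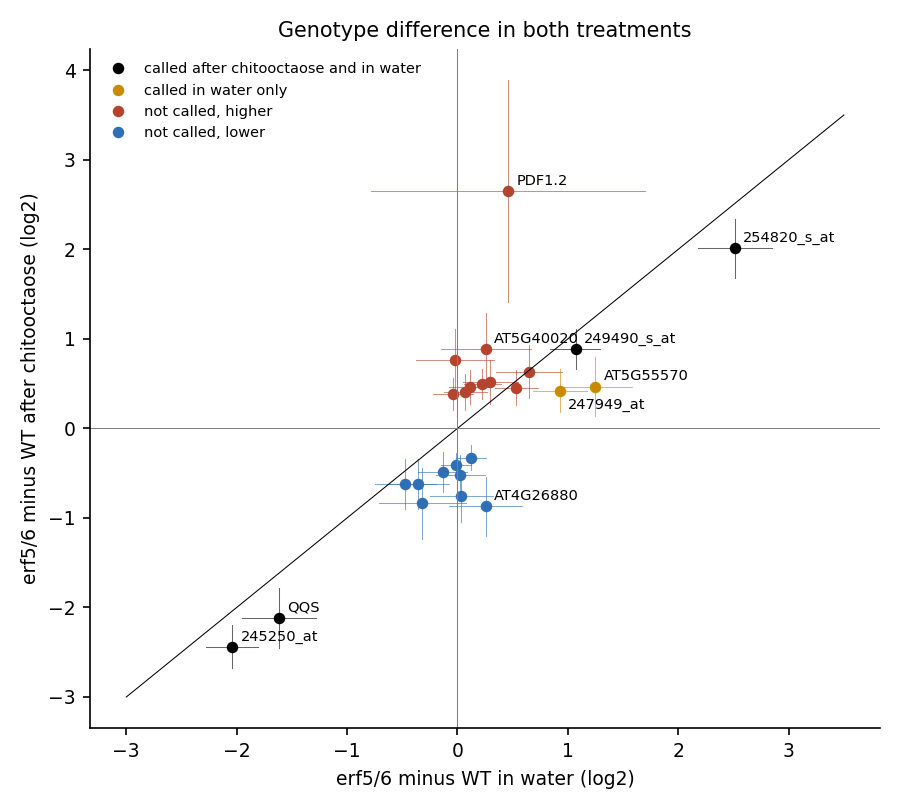
Genotype difference after chitooctaose (vertical axis, log2, erf5/6 minus WT) against that in water (horizontal axis), each with its 95% confidence interval, for the called probe sets and the 10 genes with the lowest p in each direction. The line marks equal differences. The 4 probe sets called in both treatments lie near it, at 2.01, 0.888, -2.12 and -2.44 after chitooctaose, and PDF1.2 lies above it at 2.65 after chitooctaose and 0.458 in water.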

How the data were processed

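The authors deposited linear probe set intensities for the 12 arrays. Their probe summary, background correction and scaling are unstated in the sources used here, and deposited medians lay between 77.0 and 83.2. Per the labels' protocols, total RNA was extracted with Trizol and amplified from an oligo(dT) primer. The deposited intensities were quantile normalized, floored at 16 and taken to log2. Genotype differences were fitted with limma 3.58.1 in R 4.3.3, with 1 mean per group over all 12 arrays and two-sided moderated tests. The procedure was tested on simulated data. Genes were named from the platform annotation, updated through RefSeq (TAIR10.1), only where a probe set had 1 gene. The text names each called probe set, the 10 lowest p in each direction (fewer than 10 one-gene probe sets were called) and up to 3 members of a list by p. Further list members, genes with 2-fold differences and strong responders were named after their values were seen. The rule and lists were chosen with earlier results of these data known. No gene set was tested. The array number limits the precision.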

Additional observations from a re-analysis of the deposited data

How the results depend on the processing

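Under 22 alternatives the calls of 245250_at, QQS and 254820_s_at after chitooctaose were kept, and 249490_s_at was lost in 8. No called difference changed sign. Of 93 probe sets followed singly, 28 that were not called changed sign or became 0 in up to 6 alternatives, all with a difference of 0.189 or less. The 4 calls became 7 with probe sets at the floor throughout kept in the test (5 lower, AT4G35710 and AT2G16630 among them) and 7 with array weights (4 lower). Calls of higher probe sets fell to 1 with only the arrays compared (249490_s_at at an adjusted p of 0.182) and to 1 without array 2 of chitooctaose-treated WT and array 1 of water-treated WT together, an alternative chosen after seeing the data (0.139). Same-numbered erf5/6 and WT arrays had deviations that correlated at -0.0595, 0.136 and 0.151 after chitooctaose and at 0.0828, 0.172 and 0.427 in water, so the numbers were not taken to pair the samples. Of 6 arrays, 3 after chitooctaose and 4 in water correlated best with their own number. With the replicate number as a block 6 were called, 4 of them lower, AT4G26880 gained (adjusted p = 0.0282), and the block changed no call of the other named genes. Leaving out 1 array gave 3 to 6 calls, 1 to 4 of them higher and 2 to 3 lower. In water the 6 calls became 2 without those 2 WT arrays, and 4 to 8 with 1 array left out. The difference between the treatments had 0 to 1 calls with 1 array left out, the 1 being an unnamed probe set without array 2 of water-treated erf5/6 (adjusted p = 0.0129). It had 1, 245250_at, where 32 was added to each intensity in place of the floor (-1.22, adjusted p = 0.00205). The causes were not tested. Signals near the floor limit what dim genes can show, since a difference there is a bound or is compressed.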
